A study of Mus musculus with 3 samples.

Results

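The interleukin-1 (IL-1) system was followed through 6 genes chosen by name: the agonists Il1a and Il1b, the antagonist Il1rn, the signalling receptor Il1r1, the decoy receptor Il1r2 and the shared co-receptor Il1rap. All 6 were found among the 55357 genes of the matrices, as ENSMUSG00000027399 (Il1a), ENSMUSG00000027398 (Il1b), ENSMUSG00000026981 (Il1rn), ENSMUSG00000026072 (Il1r1), ENSMUSG00000026073 (Il1r2) and ENSMUSG00000022514 (Il1rap). RNA was counted in single cells of left perilesional brain from male C57BL/6 mice aged 6 to 8 weeks, after warm enzyme digestion, red cell lysis and removal of dead cells. Each of the 3 groups gave 1 library. They were sham mice, injured mice that received PBS for 3 days after traumatic brain injury (TBI+PBS), and injured mice that received IL-25 (TBI+IL-25). The IL-25 dose was 1 µg per mouse, first given within 30 minutes of TBI and then daily over 3 days. For the sham group the labels name no agent, and they state neither the injury model nor the number of animals behind a library. With 1 library in each group no test between groups was possible. Every difference is therefore one between libraries, and every 95% interval covers counting error only.

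IL-1α and IL-1β, the products of Il1a and Il1b, are inflammatory cytokines that bind IL-1 receptor type 1 (Il1r1), which then recruits the accessory protein (Il1rap) to signal through MyD88 to NF-κB. The receptor antagonist (Il1rn) occupies the receptor without recruiting the accessory protein, and the type 2 receptor (Il1r2) binds ligand but lacks a signalling domain. IL-1β is made as a precursor that is cut by caspase-1, so its RNA does not report the active cytokine. In the injured brain the family is best known as a product of microglia and infiltrating myeloid cells that acts on astrocytes and endothelium.

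The promoters of the 4 members with a single start in the RefSeq table are shown first because Il1a and Il1b, which lie on the same strand of chromosome 2, were both higher after injury while their cell sources differed. Each sequence is the 150 bases before the annotated start, 5′ to 3′ on the gene's own strand, from RefSeq on GRCm38.p6. Capitals mark matches on either strand to 1 of 4 motifs. They are the TATA box, searched as TATAAA, the AP-1 motif, searched as TGANTCA, the E-box, for which the letters were CACGTG, and the κB motif, written as 3 G, any 5 bases and 2 C.
Il1a (chr2:129309973-129310122, minus strand): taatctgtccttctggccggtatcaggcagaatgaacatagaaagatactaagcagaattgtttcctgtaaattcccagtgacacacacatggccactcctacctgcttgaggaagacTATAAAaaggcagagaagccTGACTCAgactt
Il1b (chr2:129371140-129371289, minus strand): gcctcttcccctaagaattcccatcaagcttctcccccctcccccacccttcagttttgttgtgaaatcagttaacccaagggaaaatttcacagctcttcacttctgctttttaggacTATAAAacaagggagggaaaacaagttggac
Il1r2 (chr1:40085943-40086092, plus strand): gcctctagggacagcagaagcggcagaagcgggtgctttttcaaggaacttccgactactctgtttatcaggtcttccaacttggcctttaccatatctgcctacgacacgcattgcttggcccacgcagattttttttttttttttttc
Il1rap (chr16:26581555-26581704, plus strand): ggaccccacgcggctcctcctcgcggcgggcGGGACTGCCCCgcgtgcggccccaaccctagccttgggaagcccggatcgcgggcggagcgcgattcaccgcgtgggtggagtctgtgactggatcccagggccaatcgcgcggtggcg
TATAAA ended 27 bases before the start of Il1a and 26 bases before that of Il1b, and 7.57% of the 32851 promoter windows of this length hold it. The Il1a window also held the AP-1 motif, 6 bases before the start, which 4.24% of all windows hold. The Il1rap window held 2 overlapping matches to the κB motif, found in 35.4% of all windows, and no TATAAA. None of the 4 motifs was matched in the Il1r2 window, and the E-box, held by 4.30% of all windows, was in none of the 4 shown. These are letter matches in a short window and not measured binding. Il1rn and Il1r1 have 3 and 2 starts in the table, which counts from the 3′ end of transcripts cannot tell apart.

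In the order sham, TBI+PBS, TBI+IL-25 the libraries held 39536447, 58148289 and 61372408 UMIs, or unique molecular identifiers, each counting 1 captured RNA molecule. After filtering, 8720, 10303 and 13527 cells remained, with a median of 4112, 4667 and 3839 UMIs per cell. Cells were grouped into 28 clusters without using the 6 genes, and the clusters were named from marker genes into 13 classes. Cluster 8, called microglia-like, had 9 of 10 microglia markers, counted where at least 20% of its cells had a UMI and the level was at least 2-fold the median over clusters, but none among its 10 leading genes. Microglia-like cells made up 57.4%, 44.6% and 40.9% of the libraries, and astrocyte-like cells 37.6%, 43.9% and 49.4%. Monocyte/macrophage-like cells numbered 10, 249 and 107, and neutrophil-like cells 0, 12 and 47. Pairs of libraries shared 24 to 39 cell barcodes. The TBI+IL-25 library stood apart in ribosomal RNA, at 2.03% of UMIs against 0.173% in sham and 0.201% in TBI+PBS, and in its Cell Ranger version. These features cannot be told apart from the treatment. Levels are in CPM, the UMIs of a gene for every 1000000 UMIs of the same class and library, and sets of 3 values follow the same library order. Values in parentheses after a level, ratio or share are 95% intervals.

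Summed over all cells, each of the 6 genes was at least 2-fold higher in TBI+PBS than in sham, whereas 8.64% of the 20129 genes compared were. The ratio was lowest for Il1a, at 2.12 (2.00 to 2.24), and 1.96 when cells were weighed equally, followed by Il1rap, at 2.35 (2.05 to 2.71). It was 5.40 for Il1r1 (4.22 to 6.98) and 25.1 for Il1b (21.8 to 29.0). Il1rn and Il1r2 were almost absent from sham, with 7 and 3 UMIs, against 851 and 247 in TBI+PBS. Between TBI+IL-25 and TBI+PBS, 1 of the 6, Il1rap, was at least 2-fold higher, with a ratio of 2.14 (1.97 to 2.31), beside 5.48% of 20588 genes. These sums follow the mix of cells in each library as well as the level in each class, so the classes are described in turn, and the plot of levels by class gives all 6 genes.

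**Figure D1:**
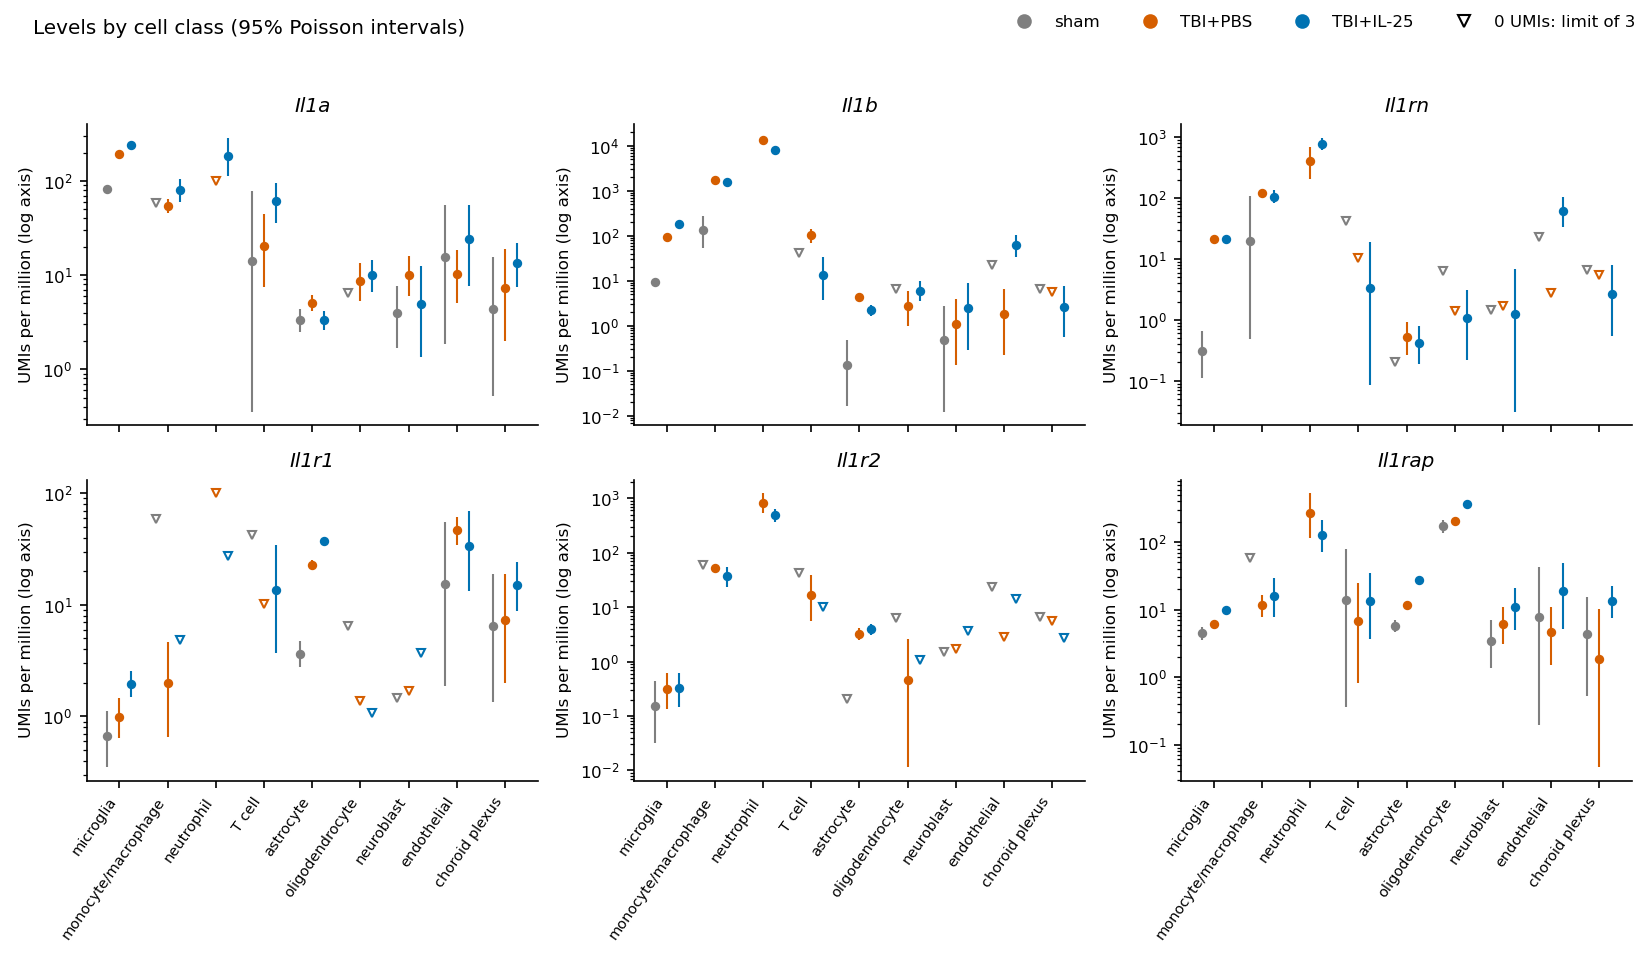
Level of each IL-1 gene in 9 of the 13 cell classes, in CPM on a log axis, with grey, orange and blue for sham, TBI+PBS and TBI+IL-25; bars are 95% Poisson intervals and open triangles mark 0 UMIs at the limit of 3 counts. Il1a is highest in microglia-like cells, overlapping neutrophil-like cells in TBI+IL-25, Il1b in neutrophil-like cells, and Il1rap in oligodendrocyte-like and neutrophil-like cells.

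Il1a, which encodes an agonist that is active without cleavage, was held mostly by microglia-like cells in all 3 libraries. Microglia-like cells held 81.6 CPM in sham (77.7 to 85.7), 192 in TBI+PBS (187 to 197) and, in TBI+IL-25, 243 (237 to 248). Both injured libraries lay above sham with no overlap. The ratio was 2.35 for TBI+PBS over sham (2.22 to 2.49) and 1.26 for TBI+IL-25 over TBI+PBS (1.22 to 1.31). Il1a was not confined to microglia-like cells. Monocyte/macrophage-like cells had 54.3 CPM in TBI+PBS (136 UMIs) and 80.3 in TBI+IL-25 (50 UMIs). Neutrophil-like cells had 0 UMIs in TBI+PBS and 184 CPM in TBI+IL-25 (20 UMIs). T cell-like cells had 20.3 CPM in TBI+PBS (6 UMIs) and 60.8 in TBI+IL-25 (18 UMIs). An Il1a UMI was found in 23.9%, 46.8% and 52.3% of microglia-like cells. After every cell was thinned to 1000 UMIs, which left out 97, 58 and 163 shallower cells, the shares were 7.22%, 16.6% and 19.2%. Astrocyte-like cells, used as a class that should lack the gene, had an Il1a UMI in 0.211%, 0.388% and 0.165% of thinned cells, at median depths of 4514, 4328 and 2955 UMIs against 3917, 4748 and 4730 in microglia-like cells.

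The microglia-like class was filled by different clusters in the 3 libraries, so Il1a was also compared inside clusters. Clusters 1 and 3, led by P2ry12 and Gpr34, held most sham microglia-like cells. Cluster 0 held more cells of the injured libraries. In these 3 clusters the Il1a ratio of TBI+PBS over sham was 2.02 (cluster 0), 2.00 (cluster 1) and 1.95 (cluster 3), beside 2.35 for the whole class. For TBI+IL-25 over TBI+PBS the ratios there were 0.808 (0.755 to 0.865), 1.08 (0.827 to 1.39) and 0.719 (0.515 to 0.983), none of them at the 1.26 of the class or above it. The cluster 1 interval held 1.26. The ratio was 1.88 in cluster 8 (1.71 to 2.08), 1.79 in cluster 17 (1.42 to 2.27) and 1.28 in cluster 13 (1.000 to 1.67). It was 0.889 in cluster 7 (0.816 to 0.969) and 0.852 in cluster 11 (0.699 to 1.04). The highest Il1a level stood in cluster 7, led by the chemokine genes Ccl3, Ccl12 and Ccl4 and by Tnf, at 369 CPM in TBI+PBS against 328 in TBI+IL-25. Cluster 7 held 7, 240 and 1775 cells.

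Il1b, which encodes the agonist whose precursor needs cleavage, was higher than sham in both injured libraries and came from several classes. In microglia-like cells it stood at 9.58 CPM in sham (8.26 to 11.1), 95.8 in TBI+PBS (92.0 to 99.7) and 184 in TBI+IL-25 (179 to 189). These intervals were separate from one another. The ratio was 10.00 for TBI+PBS over sham (8.62 to 11.7) and 1.92 for TBI+IL-25 over TBI+PBS (1.83 to 2.02). The latter came to 2.07 with median-of-ratios scaling and 2.08 with cells weighed equally, past the 2-fold used for counting. Of the 5 members with at least 20 UMIs in this class, 3 were at least 2-fold higher in TBI+PBS than in sham (Il1a, Il1b and Il1rn), beside 7.0% of the 14967 genes compared. Between TBI+IL-25 and TBI+PBS, 0 of 5 reached 2-fold, beside 6.39% of 15388 genes higher and 4.64% lower.

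Few microglia-like cells carried most of the Il1b. The gene was detected in 1.42%, 11% and 19.8% of them, and in 0.571%, 4.94% and 8.76% after thinning to 1000 UMIs. Astrocyte-like cells had it in 0.0704%, 0.285% and 0.257% after the same thinning. The 10% of microglia-like cells with the most Il1b UMIs held 98.1% of the class's Il1b UMIs in TBI+PBS against 86.7% in TBI+IL-25, compared with 48.6% and 46.4% for Il1a. Single microglia-like cells reached 64 and 65 Il1b UMIs. In sham, 47 of the 188 microglial Il1b UMIs lay in the 7 cells of cluster 7 and 22 in the 14 cells of cluster 8.

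Inside clusters Il1b was higher in TBI+PBS than in sham, and the injured libraries differed in either direction. TBI+PBS over sham gave 8.58 in cluster 0 (5.74 to 13.5), 4.72 in cluster 1 (3.28 to 6.84) and 6.22 in cluster 3 (4.13 to 9.52). TBI+IL-25 over TBI+PBS gave 0.896 in cluster 0 (0.811 to 0.989), 1.32 in cluster 7 (1.18 to 1.48) and 2.62 in cluster 8 (2.39 to 2.87). It gave 1.99 in cluster 1 (1.20 to 3.19) and 0.260 in cluster 3 (0.0526 to 0.789, from 3 UMIs in TBI+IL-25). Clusters 11, 13 and 17 gave 1.49 (1.05 to 2.13), 1.65 (1.11 to 2.54) and 2.01 (1.40 to 2.94). Cluster 8 was led by Spp1 and Lpl, genes known from microglia around lesions, and cluster 7 by Ccl3. Together these 2 clusters provided most microglial Il1b of the TBI+IL-25 library, with 51.8% in cluster 7 and 24.2% in cluster 8. In TBI+PBS cluster 0 held 41.5%, cluster 8 32.7% and cluster 7 14.2%. The summed level of 15 dissociation and immediate early genes in microglia-like cells was 25708, 18986 and 24860 CPM. Its part in these differences was not tested.

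**Figure D2:**
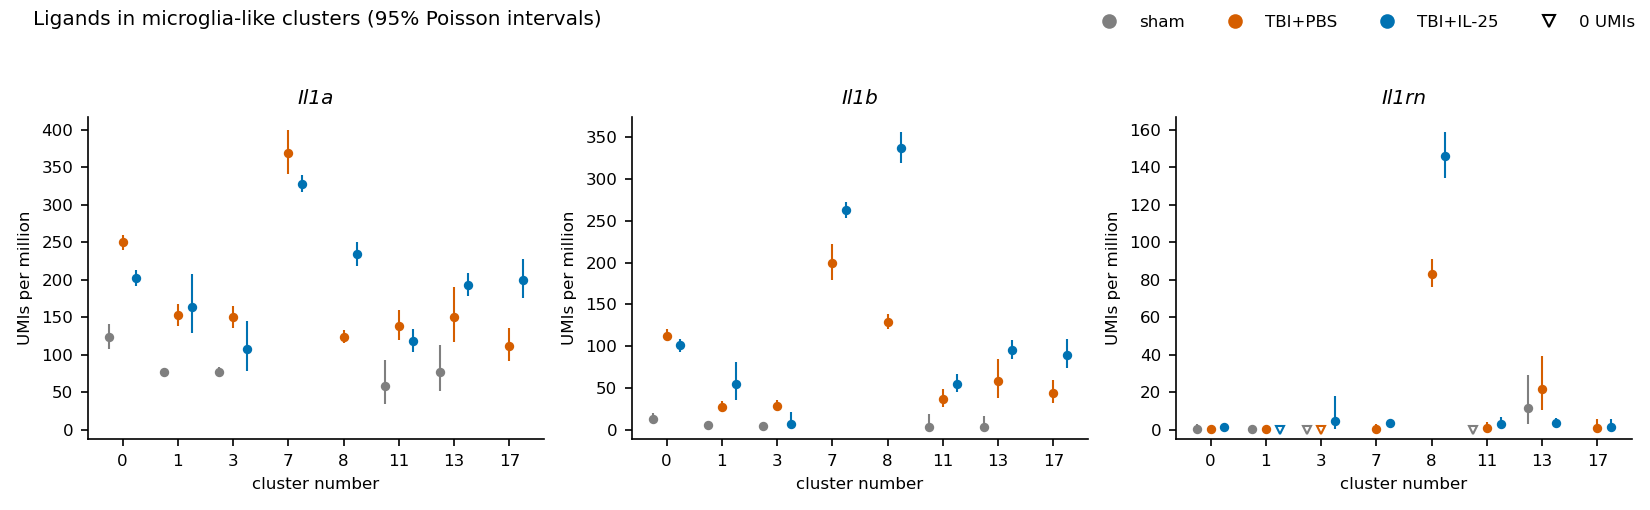
Level of Il1a, Il1b and Il1rn in CPM in the microglia-like clusters, by cluster number, for libraries with at least 50 cells in the cluster; colours are the libraries, bars are 95% Poisson intervals and open triangles mark 0 UMIs. Clusters 7 and 8 hold the highest Il1b levels, and Il1rn stands out in cluster 8 alone, at 83.2 and 146 CPM.

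The monocyte/macrophage-like and neutrophil-like classes held Il1b at far higher levels than microglia-like cells. Monocyte/macrophage-like cells had 136 CPM in sham (54.8 to 281, from 7 UMIs in 1 of 10 cells), 1701 in TBI+PBS (1651 to 1753) and 1539 in TBI+IL-25 (1443 to 1640). After thinning, the share of these cells with an Il1b UMI was 50.2% after PBS and 54.3% after IL-25. Neutrophil-like cells had 13457 CPM in TBI+PBS (12173 to 14839, 12 cells) and 8165 in TBI+IL-25 (7636 to 8721, 47 cells). TBI+IL-25 stood lower in both classes, with ratios of 0.905 (0.843 to 0.971) and 0.607 (0.539 to 0.684), while it was higher in microglia-like cells.

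Over all cells the injured libraries were close in Il1b, at 131 CPM in TBI+PBS (128 to 134) and 126 in TBI+IL-25 (123 to 129), but different cells held it. The ratio of 0.966 turned to 1.08 with median-of-ratios scaling and to 1.15 with cells weighed equally. In TBI+PBS monocyte/macrophage-like cells held 59.0% of 7230 Il1b UMIs (57.8% to 60.1%), although they were 2.42% of the cells. Microglia-like cells held 33.3% and neutrophil-like cells 5.56%. In TBI+IL-25 microglia-like cells held 72.5% of 7095 UMIs (71.4% to 73.5%), monocyte/macrophage-like cells 13.5% and neutrophil-like cells 12.5%. In sham 94.9% of 198 UMIs were microglial. Microglia-like cells held 96.2%, 94.0% and 96.9% of Il1a UMIs. How many cells of each class were captured enters these shares directly.

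**Figure D3:**
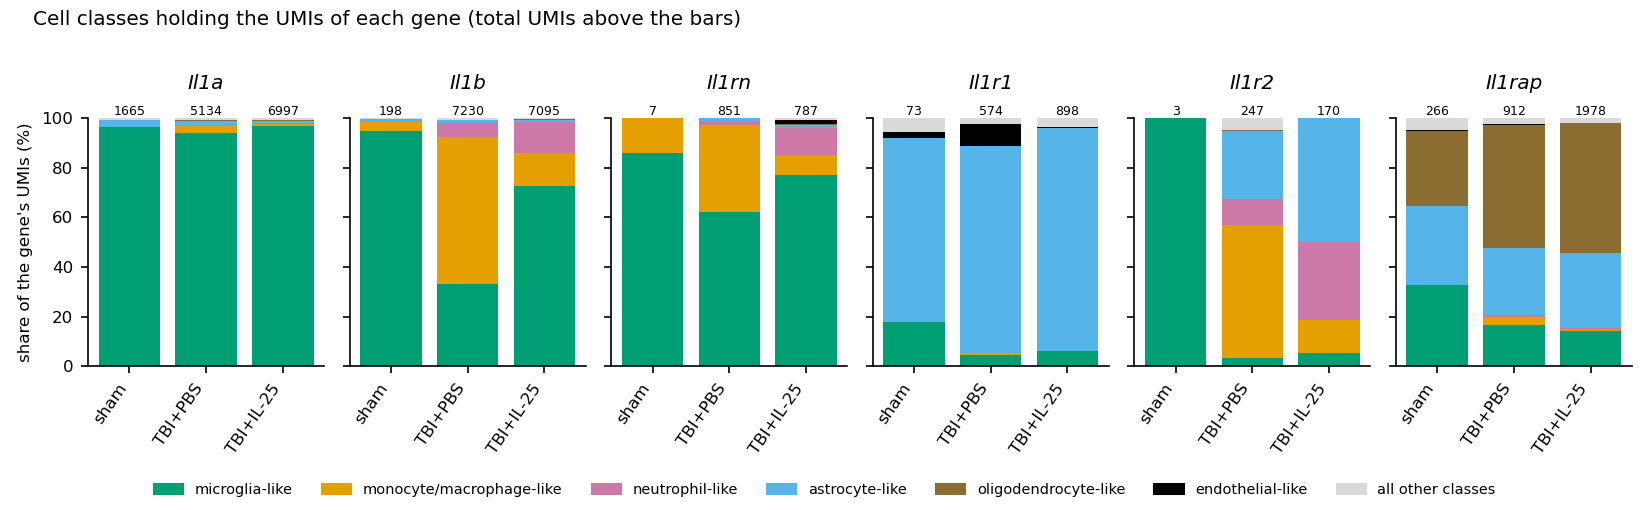
Share of each gene's UMIs, in percent, held by each cell class in the sham, TBI+PBS and TBI+IL-25 libraries, with the total UMIs of the gene above each bar. Microglia-like cells hold nearly all Il1a, and their part of Il1b is 94.9%, 33.3% and 72.5%, and Il1rap is shared by oligodendrocyte-like, astrocyte-like and microglia-like cells.

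Agonist RNA in the other classes was low or rested on few UMIs or cells. In astrocyte-like cells Il1a stood at 3.32, 5.06 and 3.33 CPM and Il1b at 0.136, 4.34 and 2.22 CPM. Per 1000 UMIs of the microglial complement genes C1qa, C1qb and C1qc, astrocyte-like cells held 4.64, 6.47 and 6.98 Il1a UMIs, against 3.4, 6.88 and 9.24 in microglia-like cells. For Il1b the same measure was 5.55 in astrocyte-like and 3.43 in microglia-like cells of TBI+PBS, and 4.66 and 7.02 in those of TBI+IL-25. Il1b in T cell-like cells of TBI+PBS stood at 102 CPM (68.6 to 145), from 30 UMIs in 2 of 65 cells. Fibroblast-like cells of that library had 92.8 CPM (58.9 to 139), from 23 UMIs in 2 of 23 cells. Both intervals held the 95.8 CPM of microglia-like cells. In TBI+IL-25 endothelial-like cells had 62.0 CPM of Il1b, from 13 UMIs in 1 of 49 cells, and ependymal-like cells 40.9 CPM, from 15 UMIs in 3 of 50 cells.

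Il1rn, the antagonist, was nearly absent from sham and present in both injured libraries. Microglia-like cells had 0.306 CPM in sham (0.112 to 0.665, 6 UMIs), 21.0 in TBI+PBS (19.2 to 22.9) and 21.7 in TBI+IL-25. The injured libraries were close, and both were far above sham. The ratio of TBI+PBS over sham was 68.7 (31.3 to 188), and that of TBI+IL-25 over TBI+PBS 1.03 (0.916 to 1.16). Monocyte/macrophage-like cells had 120 CPM in TBI+PBS (107 to 134) and 106 in TBI+IL-25 (81.9 to 135). Neutrophil-like cells had 402 (208 to 702) and 783 (626 to 969), a ratio of 1.95 (1.06 to 3.92), the opposite order to their Il1b.

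Microglial Il1rn belonged almost wholly to the Spp1-led cluster 8, which held 96.4% of the class's Il1rn UMIs in TBI+PBS against 88.9% in TBI+IL-25 with 14.8% and 9.75% of its cells. Within cluster 8 the level was 83.2 CPM in TBI+PBS (76.1 to 90.8) and 146 in TBI+IL-25 (134 to 159), a ratio of 1.75 (1.55 to 1.98). Only 10.4% and 16.1% of the cluster's cells had an Il1rn UMI, and 44 cells in each library had at least 3. All 10 microglia markers, the list by which the cluster was named, had at least 1 UMI over these 44 cells. Their summed level was 8759 CPM in TBI+PBS against 15864 in the cluster's cells without Il1rn, and 7217 against 10713 in TBI+IL-25. In the TBI+PBS cells P2ry12 stood at 95 CPM against 310, and Tmem119 at 130 against 446, both genes of homeostatic microglia. The gap was smaller in TBI+IL-25, where P2ry12 stood at 173 CPM against 197 and Tmem119 at 183 against 275.

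Markers of monocytes and macrophages had a lower sum in the Il1rn cells of cluster 8 than in its cells without Il1rn. In TBI+PBS the sum was 556 CPM in the 44 Il1rn cells, against 774 CPM in the 609 cells without Il1rn. UMIs were found for 4 of the 10 markers in the former and 9 of 10 in the latter. Single cells held 0 to 38 and 0 to 101 UMIs. The number of markers found and the highest cell both rise with the number of cells, so they cannot be compared here. In TBI+IL-25 the sums were 538 and 632 CPM. Border-associated macrophage markers in the Il1rn cells stood at 196 CPM against 149 in TBI+PBS, and at 10.2 against 31.5 in TBI+IL-25. Of the 9 neutrophil markers only S100a9 and S100a8 are given here, named after their values were seen. S100a9 in the Il1rn cells of TBI+IL-25 stood at 22.9 CPM (9 UMIs, in 9.09% of the cells) against 3.05. S100a8 there stood at 7.62 CPM (3 UMIs, in 6.82% of the cells) against 3.39. In TBI+PBS both had 0 UMIs in the Il1rn cells. The part of monocytes, macrophages or neutrophils in the Il1rn level was not tested.

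Il1rn and Il1b were then compared cell by cell after thinning to 2000 UMIs. In cluster 8 of TBI+PBS, 0 of 39 cells with an Il1rn UMI also had Il1b (0% to 9.03%), whereas 62 of 630 cells without Il1rn did (9.84%, 7.63% to 12.4%). In TBI+IL-25 the same cluster gave 14 of 53 (26.4%, 15.3% to 40.3%) and 97 of 445 (21.8%, 18.0% to 25.9%). Cells with both were thus found in TBI+IL-25 and none in TBI+PBS, a difference with no test. With Il1a the share was higher in both libraries of cluster 8. Il1b was found there in 24.1% of cells with Il1a and in 6.15% of those without in TBI+PBS, and in 38.7% and 16.1% in TBI+IL-25. Tnf, another inflammatory cytokine gene, gave 17.2% and 6.95% in TBI+PBS and 29.4% and 15.2% in TBI+IL-25. In clusters 0 and 7 the gaps were smaller or reversed. With Il1a, cluster 0 gave 12.3% and 7.26% in TBI+PBS and 11.8% and 8.90% in TBI+IL-25. Cluster 7 gave 17.4% and 13.5%, then 21.2% and 19.1%, with overlapping intervals. With Tnf, cluster 0 gave 7.22% and 9.17% in TBI+PBS and 8.66% and 10.1% in TBI+IL-25. Cluster 7 of TBI+IL-25 gave 19% and 20.9%. In TBI+PBS its share was higher with Tnf, at 20.5%, with overlapping intervals.

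The balance of agonist to antagonist RNA was expressed as Il1a plus Il1b UMIs per Il1rn UMI. This ratio is not scaled for capture of each gene, so it is only compared between libraries and classes. Over all cells it was 266 in sham (129 to 663, from 7 Il1rn UMIs), 14.5 in TBI+PBS (13.6 to 15.6) and 17.9 in TBI+IL-25 (16.7 to 19.3). In microglia-like cells it was 298, 13.7 and 19.7. In cluster 8 it was 3.04 (2.75 to 3.37) and 3.91 (3.56 to 4.31), while in the chemokine cluster 7 of TBI+IL-25 it was 176 (126 to 255). Monocyte/macrophage-like cells gave 14.7 and 15.3 in the injured libraries.

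Il1r1, the signalling receptor, was mainly an astrocytic gene, and astrocyte-like cells held 74.0%, 83.6% and 89.6% of its UMIs. Its level there was 3.66 CPM in sham (2.75 to 4.77), 22.9 in TBI+PBS (20.9 to 25) and 37.2 in TBI+IL-25 (34.7 to 39.9). No interval overlapped another. The ratios were 6.26 for TBI+PBS over sham (4.72 to 8.46) and 1.62 for TBI+IL-25 over TBI+PBS (1.45 to 1.82). Thinned to 1000 UMIs, 0.246%, 1.86% and 3.09% of astrocyte-like cells had an Il1r1 UMI, against 0.102%, 0.0882% and 0.279% of microglia-like cells. In oligodendrocyte-like cells it was at 0 UMIs in all 3 libraries, which at the limit of 3 counts allows 6.45, 1.38 and 1.07 CPM.

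Inside the astrocyte-like class Il1r1 ranged widely between clusters. Cluster 10, led by Tm4sf1, Ptx3, Gfap and Lcn2, genes of reactive astrocytes, had 102 CPM of Il1r1 in TBI+PBS (90.8 to 114) and 87.5 in TBI+IL-25 (75.5 to 101). Cluster 6, with 2469 of its cells from TBI+IL-25 and 68 from TBI+PBS, had 45.6 and 34.3 CPM. Cluster 9, with 1113 cells from TBI+PBS and 97 from TBI+IL-25, had 17.1 and 20.7 CPM. Cluster 2, led by Agt and Slc6a11, stayed at 0.537, 1.34 and 2.31 CPM. Cluster 4, where sham cells were most numerous, had 4.73, 2.95 and 4.82 CPM, with a ratio of 0.623 for TBI+PBS over sham (0.280 to 1.25). Cluster 5, with a median of 825.5 UMIs per cell, had 3.98, 18.7 and 26.4 CPM. Clusters 9 and 10 held 28.8% and 61.2% of the astrocytic Il1r1 UMIs of TBI+PBS, and clusters 6 and 10 65.5% and 23.9% of those of TBI+IL-25, and these 3 clusters held at most 1 sham cell each. Over all astrocyte-like cells the dissociation and immediate early genes summed to 1326, 3818 and 6486 CPM, and their part in the Il1r1 levels was not tested.

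**Figure D4:**
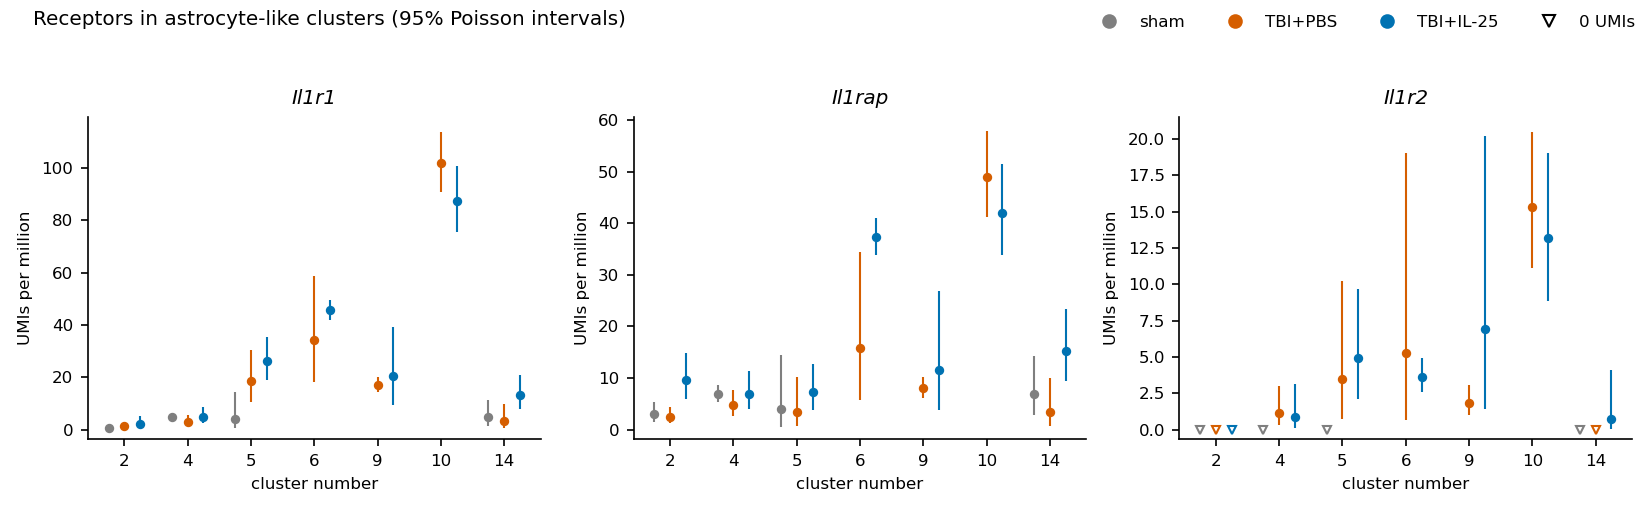
Level of Il1r1, Il1rap and Il1r2 in CPM in the astrocyte-like clusters, by cluster number, for libraries with at least 50 cells in the cluster; colours are the libraries, bars are 95% Poisson intervals and open triangles mark 0 UMIs. All 3 genes are highest in cluster 10, where Il1r1 reaches 102 CPM in TBI+PBS, and clusters 2, 4 and 14 lie at or under 15.3 CPM for each of the 3 genes.

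Endothelial-like cells also held Il1r1, at 15.4 CPM in sham (1.86 to 55.5, 2 UMIs), 46.5 in TBI+PBS (34.5 to 61.3) and 33.4 in TBI+IL-25 (13.4 to 68.8). These intervals overlapped, and the cells numbered 37, 228 and 49. Microglia-like cells were at 0.662, 0.994 and 1.97 CPM. In TBI+PBS endothelial-like cells stood above astrocyte-like cells without overlap, and pericyte/smooth muscle-like (33.3, 2 UMIs) and fibroblast-like cells (20.2, 5 UMIs) could not be ranked by their intervals. In TBI+IL-25 the order was fibroblast-like (42.4, 6 UMIs), astrocyte-like and endothelial-like cells, whose intervals all overlapped.

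Il1rap, the co-receptor, was highest in classes with no Il1r1 UMI, the oligodendrocyte-like and neutrophil-like cells. Oligodendrocyte-like cells had 172 CPM in sham (136 to 214, 46 cells), 207 in TBI+PBS (189 to 227, 217 cells) and 370 in TBI+IL-25 (348 to 394, 646 cells). Sham and TBI+PBS overlapped and TBI+IL-25 lay above both. The ratio was 1.21 for TBI+PBS over sham (0.949 to 1.55) and 1.79 for TBI+IL-25 over TBI+PBS (1.60 to 2.00). Il1rap was found in 69.6%, 75.1% and 66.1% of the oligodendrocyte-like cells, at median depths of 10230, 8400 and 3912 UMIs, so the unthinned shares give no order. Thinned to 1000 UMIs, the shares were 8.70% (2.42% to 20.8%), 19.7% (14.6% to 25.7%) and 29.8% (26.2% to 33.6%), against 0.510%, 0.551% and 0.857% in microglia-like cells. Oligodendrocyte-like cells held 30.1%, 49.5% and 52.3% of all Il1rap UMIs while being 0.528%, 2.11% and 4.78% of cells. Neutrophil-like cells had 268 CPM in TBI+PBS (116 to 528, 8 UMIs) and 129 in TBI+IL-25 (70.5 to 216, 14 UMIs).

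In astrocyte-like cells Il1rap stood at 5.76 CPM in sham (4.60 to 7.12), 11.7 in TBI+PBS (10.3 to 13.2) and 27.7 in TBI+IL-25 (25.5 to 30.0). The ratios were 2.03 (1.58 to 2.63) and 2.37 (2.04 to 2.76). Different clusters held most of the class in each library, and inside clusters the ratios differed from these. TBI+PBS over sham gave 0.829 in cluster 2 (0.326 to 2.11) and 0.690 in cluster 4 (0.373 to 1.21). TBI+IL-25 over TBI+PBS gave 3.96 in cluster 2 (1.82 to 9.09), 1.49 in cluster 4 (0.695 to 3.17), 2.36 in cluster 6 (1.08 to 6.48, from 6 UMIs in TBI+PBS) and 0.856 in cluster 10 (0.651 to 1.12). It was highest in the astrocyte-like cluster where Il1r1 was, at 49.0 and 41.9 CPM in cluster 10 and 37.4 CPM in cluster 6 of TBI+IL-25. In cluster 10 of TBI+PBS, thinned to 2000 UMIs, Il1r1 was found in 10 of 24 cells with Il1rap (41.7%, 22.1% to 63.4%) and in 57 of 336 without (17.0%, 13.1% to 21.4%). In TBI+IL-25 it was 5 of 25 (6.83% to 40.7%) and 59 of 381 (12.0% to 19.5%), with overlapping intervals. Microglia-like cells had 4.43, 6.04 and 9.99 CPM of Il1rap. Counts summed per gene do not separate the membrane form of the protein from its soluble form.

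Of the 5 members with at least 20 UMIs in astrocyte-like cells, 4 were at least 2-fold higher in TBI+PBS than in sham (Il1b, Il1r1, Il1r2 and Il1rap), beside 7.32% of 16568 genes. Between TBI+IL-25 and TBI+PBS 1 of 6 was, Il1rap, beside 5.05% of 16772 genes. Among these, Il1b rests on 2 sham UMIs and stood at only 4.34 CPM in TBI+PBS. Whether its UMIs came from the astrocyte-like cells themselves was not tested. Il1rap came to 1.87 when doublets were kept.

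Il1r2, the decoy receptor, was highest in the neutrophil-like and monocyte/macrophage-like cells of both injured libraries. Neutrophil-like cells had 837 CPM in TBI+PBS (542 to 1235, 25 UMIs) and 488 in TBI+IL-25 (366 to 639, 53 UMIs), a ratio of 0.584 (0.356 to 0.980). Monocyte/macrophage-like cells had 53.1 CPM in TBI+PBS (44.4 to 62.9) and 36.9 in TBI+IL-25 (23.4 to 55.4), which overlapped. Microglia-like cells stayed at 0.153, 0.318 and 0.322 CPM. Neutrophil-like cells had 0 Il1r1 UMIs, which at the limit of 3 counts allows 100 CPM in TBI+PBS against 27.6 in TBI+IL-25.

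Within monocyte/macrophage-like cells Il1r2 marked a minority. In TBI+PBS 32 of 249 cells had a UMI and in TBI+IL-25 11 of 107. Of these cells 56.2% and 63.6% had a UMI of the 7 dendritic cell markers, against 14.7% and 13.5% of the cells without Il1r2. These shares were not thinned, so a difference in depth enters them. Summed dendritic marker levels were 236 against 122 CPM in TBI+PBS and 361 against 348 in TBI+IL-25. Border-associated macrophage markers were lower in the Il1r2 cells, at 657 against 3633 CPM and 361 against 1163. The monocyte marker Ccr2 stood in them at 797 against 511 CPM in TBI+PBS and 382 against 390 in TBI+IL-25. Dendritic cells formed no cluster of their own, and the part of such cells in the Il1r2 level was not tested.

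Astrocyte-like cells also held Il1r2 after injury, at 0 UMIs in sham, 3.24 CPM in TBI+PBS (2.52 to 4.11) and 3.93 in TBI+IL-25 (3.14 to 4.86). Taken against a floor of 3 counts in sham, TBI+PBS was 16.0-fold higher and TBI+IL-25 19.3-fold. With the observed 0 in sham, the lower interval bounds of the ratios were 12.6 and 15.4. The gene was highest in cluster 10, at 15.3 and 13.2 CPM. Among the 40 and 26 cluster 10 cells with Il1r2, all 10 astrocyte markers were present. The cluster was named by these markers, so their presence does not tell which cells the Il1r2 came from. Neutrophil markers summed to 20.2 CPM in those of TBI+PBS, with 1 of 9 detected and 0 to 5 UMIs per cell, and to 0 in those of TBI+IL-25, against 18.2 and 8.22 CPM in the cluster's other cells. Astrocytic Il1r2 UMIs per Il1r1 UMI were 0.142 (0.108 to 0.183) in TBI+PBS and 0.106 (0.0834 to 0.132) in TBI+IL-25, compared with 26.6 (11.1 to 83.3) in monocyte/macrophage-like cells of TBI+PBS.

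The rest of the IL-1 pathway was read in microglia-like cells from 4 gene lists, with a further list of dissociation and immediate early genes, as counts of genes at least 2-fold apart in TBI+PBS over sham, beside a median log2 ratio of -0.16 over all genes compared, of which 7.0% were at least 2-fold higher and 7.68% at least 2-fold lower. Of 15 NF-κB response genes 5 were higher and 0 lower (median 0.07). Among them were the prostaglandin synthase gene Ptgs2, with a ratio of 44.3 (26.2 to 81.3), the chemokine genes Cxcl2, at 16.4 (12.5 to 21.9), and Ccl2, at 12.3 (11.4 to 13.4), and Tnf, at 5.82 (5.21 to 6.51). Of 12 genes for processing and release of IL-1, 1 was higher and 0 lower (median 0.04), a share near that of all genes. The calpain gene Capn2 was at 2.23 (1.70 to 2.96), while the ATP receptor gene P2rx7 was at 0.614 (0.579 to 0.651), Txnip at 0.603 (0.591 to 0.616) and Casp8 at 0.690 (0.658 to 0.723).

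None of 15 genes of receptor-proximal signalling passed 2-fold (median -0.23). The kinase gene Irak2 was at 0.669 (0.626 to 0.715), the adaptor genes Tab2 at 0.640 (0.609 to 0.673) and Tab3 at 0.670 (0.525 to 0.855), and the ubiquitin ligase gene Peli1 at 0.801 (0.768 to 0.835). Of 7 other IL-1 family ligands and receptors 1 was higher and 0 lower (median 0.10). This was the IL-18 receptor accessory gene Il18rap, at 13 (5.77 to 36.3, from 6 sham UMIs), whereas the cytokine gene Il18 was at 0.729 (0.668 to 0.796), its binding protein gene Il18bp at 1.32 (0.942 to 1.88) and the IL-36 receptor gene Il1rl2 at 0.780 (0.670 to 0.908). Of the 15 dissociation and immediate early genes 3 were higher (median -0.08). Ier3 was at 2.32 (2.21 to 2.43), Hspa1a at 2.99 (2.87 to 3.12) and Hspa1b at 2.64 (2.50 to 2.78), and Jun at 0.559 (0.555 to 0.564).

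In TBI+IL-25 over TBI+PBS, 5 of 16 NF-κB response genes were higher and 0 lower in microglia-like cells (median 0.55, beside -0.06 over all genes), with Tnf at 3.29 (3.15 to 3.43). Of all genes compared there, 6.39% were higher and 4.64% lower. The median of the dissociation and immediate early genes was 0.65, with 3 of 15 higher. The processing and release list had 1 of 12 higher and 0 lower, the receptor-proximal list 0 of 15, and the other IL-1 family list 1 of 7 higher and 1 lower. In astrocyte-like cells, where Il1r1 was found, 9 of 15 NF-κB response genes and 10 of 15 dissociation and immediate early genes were higher in TBI+PBS than in sham, with medians of 1.59 and 1.65 beside -0.06 over all genes, of which 7.32% were higher.

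For each member the 3 genes with the most similar levels were taken over 19 points, each a class in 1 library with at least 50 cells, among 17040 genes. Neutrophil-like cells, where Il1b, Il1rn and Il1r2 were highest, had 12 and 47 cells in the injured libraries and gave no point. Likeness is Pearson's r of log2(CPM + 1), the points share libraries and classes, and it is a description only. Il1a was most like Cgas (0.953), Naip2 (0.948) and Tlr1 (0.948), and Il1b like Lyz2 (0.955), Gpr35 (0.939) and Osm (0.935). Il1rn was most like Cd36 (0.967), Gm42793 (0.948) and Cd300ld (0.923). Among the receptors, Il1r1 was closest to Hes1 (0.880), Pdlim5 (0.872) and Lamb2 (0.863), and Il1r2 to Ifi205 (0.957), Ciita (0.943) and Ifitm6 (0.940). Il1rap was closest to Spock3 (0.923), Smco3 (0.907) and Gm48678 (0.906). Between members, r was 0.849 for Il1b with Il1rn, 0.616 for Il1a with Il1b and -0.194 for Il1r1 with Il1rap.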

How the data were processed

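The deposited files hold raw UMI counts per gene and barcode, 1 matrix for each library, with no normalization by the authors. Per the file headers they came from Cell Ranger 7.1.0 (sham and TBI+PBS) and 7.2.0 (TBI+IL-25). The submitters' processing notes list GRCm39, Cell Ranger 7.2.0 and Seurat 4.4.0. The promoters are from RefSeq on GRCm38.p6 and were not placed on GRCm39.

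Cells needed 500 UMIs, 300 genes and no more than 20% mitochondrial UMIs, which removed 18, 41 and 55 cells (sham, TBI+PBS, TBI+IL-25). Scrublet, run in scanpy 1.11.5 on each library, marked doublets above a score of 0.2, a threshold set after its scores were seen, and 201, 299 and 640 cells (2.25%, 2.81%, 4.50%) were dropped. The libraries were clustered together without integration (2000 variable genes, the 6 members left out, 30 principal components, 15 neighbours, leidenalg 0.10.2 at resolution 1).

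UMIs were summed by class and library and scaled to CPM, with exact Poisson intervals for levels, conditional binomial intervals for ratios and Clopper-Pearson intervals for shares (SciPy 1.17.1). All are 95% intervals of counting error only. A background share counts genes at least 2-fold apart among those with 20 UMIs or more over the 2 libraries compared. A count of 0 entered at a floor of 3 counts per class and library. Only the ratios, their intervals and the 2-fold calls were tried on simulated Poisson counts, for microglia-like cells in TBI+PBS over sham. No p-value is given, since each group has 1 library.

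The members, gene lists and markers were chosen with earlier results of these data known, and the promoter motifs after the sequences were seen. Besides the members, the text names from each list the 4 genes whose interval bound nearest to 1 was most extreme in microglia-like cells of TBI+PBS over sham, and for each member the 3 genes most like it among those with at least 100 UMIs. Tnf as a partner in co-detection, single marker genes and the genes leading a cluster were named after their values were seen. Alternatives covered scaling, filters, doublets, resolution, cell weighting, free RNA and thinning. Leaving out the shallow astrocyte-like cluster was added after seeing the data.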

Additional observations from a re-analysis of the deposited data

Results flagged for a closer look

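Il1b and Il1a differed in direction between cell classes in TBI+IL-25 over TBI+PBS, with intervals on opposite sides of 1. The difference between classes was not tested, and there was 1 library per group. For Il1b the ratio was 1.92 in microglia-like cells, 0.905 in monocyte/macrophage-like cells, 0.511 in astrocyte-like cells and 0.133 in T cell-like cells, where 30 of the 34 UMIs lay in 2 cells. For Il1a it was 1.26 in microglia-like, 1.48 in monocyte/macrophage-like and 2.99 in T cell-like cells (18 UMIs against 6), and 0.658 in astrocyte-like cells. When doublets were kept, the Il1b ratio of astrocyte-like cells was 1.00. When microglial free RNA was subtracted, the Il1a ratio of monocyte/macrophage-like cells was 1.02.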

How the results depend on the processing

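Of 477 ratios of a member recomputed over 9 alternatives, 443 moved by less than their counting interval and 34 by more. No ratio past 2-fold turned its direction, but some ratios crossed 2-fold or 1. With median-of-ratios scaling, all-cell ratios of TBI+IL-25 over TBI+PBS were 1.5 for Il1a, 1.08 for Il1b, 1.02 for Il1rn, 1.72 for Il1r1 and 2.39 for Il1rap. Over sham, they were 2.27 for Il1a with PBS and, with IL-25, 3.41 for Il1a, 29.1 for Il1b and 6.03 for Il1rap. In microglia-like cells Il1a came to 2.58 (TBI+PBS over sham), 1.36 (TBI+IL-25 over TBI+PBS) and 3.51 (TBI+IL-25 over sham), and Il1b to 2.07 and 22.7 for the last 2 of these. With cells weighed equally, all-cell ratios of TBI+PBS over sham were 1.96 for Il1a and 17.2 for Il1b. Those of TBI+IL-25 over TBI+PBS were 1.09 for Il1a, 1.15 for Il1b, 1.10 for Il1rn, 0.960 for Il1r2 and 2.72 for Il1rap, and over sham 2.13 for Il1a, 19.8 for Il1b and 6.19 for Il1rap. In microglia-like cells Il1b was 8.31 in TBI+PBS over sham, and in TBI+IL-25 over TBI+PBS Il1a was 1.21, Il1b 2.08 and Il1rn 1.16. The cause of these moves was not tested. Thinning to 2000 UMIs, which keeps more UMIs of each cell, gave Il1a in 13.8%, 26.9% and 32.6% of microglia-like cells and Il1b in 0.962%, 7.03% and 13.9%.

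Genes past the fold, in the order TBI+PBS over sham, TBI+IL-25 over TBI+PBS, TBI+IL-25 over sham, numbered 2996, 3082 and 6053 in all cells and 2196, 1698 and 4196 in microglia-like cells. With a minimum of 1 UMI they numbered 5633, 5915 and 9108, and 4484, 4033 and 6789. With a fold of 1.5 they numbered 6513, 6993 and 10503, and 5207, 4380 and 7746. No paired analysis was possible because each group has 1 library, and for the same reason no replicate could be left out. Spread between animals is therefore unknown, and classes of under 50 cells, such as the neutrophil-like cells, rest on few cells.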
